A study of Mus musculus with 9 samples.

Results

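The Slc22 genes encode the organic ion transporters through which proximal tubule cells take up drugs, toxins, urate and charged metabolites. The 9 genes described here are Slc22a2, Slc22a6, Slc22a7, Slc22a8, Slc22a12, Slc22a13, Slc22a18, Slc22a19 and Slc22a30, found by symbol among the 55385 genes of a table of counts. All 9 passed the filter on low counts, as did 15519 genes in all. RNA was sequenced from tdTomato-positive cells sorted from the kidney cortex and outer medulla of male mice (age 9 to 12 weeks, weight 25 to 30 g).

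The uninjured group came from Slc34a1IRES-CreERT2/+:R26RtdT/+ mice given tamoxifen, in which Cre driven from Slc34a1, a phosphate transporter gene of the proximal tubule, marks cells with tdTomato. The other 2 groups came from Sox9IRES-CreERT2/+:R26RtdT/+ mice with ischemia-reperfusion injury (IRI) of both kidneys, in which Cre is driven from Sox9, a transcription factor gene that injured tubule cells switch on. The 48 h group had tamoxifen at the time of injury, and the d14 group had it on days 10 and 12 after injury and was collected on day 14. Each group had 3 libraries that the labels call biological replicates, without saying whether each is 1 mouse, so p values measure the spread between these libraries. The Cre allele and the injury both differ between the uninjured and the Sox9 groups, and the tamoxifen schedule and the time both differ between 48 h and d14, so these cannot be told apart. The comparisons ask how cells that switched Sox9 on early and cells with Sox9 expression later differ from uninjured proximal tubule cells.

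As background, organic anion transporters on the blood side of the proximal tubule cell exchange an intracellular dicarboxylate for an organic anion, and organic cation transporters on the same side let cations enter along the membrane potential. Transporters of the urine side then move the solutes on, and URAT1 works there in the other direction, bringing urate back from the urine. The nuclear receptor HNF4A is a known regulator of several of these genes.

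Library totals ran from 8036054 counts (48 h replicate 2) to 51631204 counts (uninjured replicate 1), and values are CPM, counts scaled to a common library size after TMM scaling. The TMM factors were 0.846 to 0.902 in uninjured, 0.848 to 0.912 in 48 h and 1.21 to 1.48 in d14 libraries, and 25.1 to 29.2%, 32.7 to 39.2% and 15.2 to 25.2% of their counts were mitochondrial. Slc34a1, the gene behind the uninjured label, was at 4626 to 4807 CPM in uninjured libraries, 1147 to 4404 CPM at 48 h and 994 to 1653 CPM at d14. Sox9 was at 0.0351 to 0.635, 7.57 to 22.1 and 28.8 to 38.8 CPM, in the direction of the labels. A reference of 10 proximal tubule markers (Lrp2, Cubn, Slc5a2, Slc5a12, Aqp1, Slc4a4, Slc6a19, Slc3a1, Slc7a9 and Ggt1) summed to 10274 to 12840 CPM in uninjured cells, 4355 to 5905 CPM at 48 h and 2042 to 2725 CPM at d14. The 5 markers of the thick ascending limb summed to 228 to 330 CPM, 768 to 955 CPM and 2995 to 5576 CPM, and the 4 of the distal convoluted and connecting tubule to 63.7 to 109.9, 209 to 381 and 1952 to 3530 CPM. These lists did not rise as a whole at 48 h, when 4 of the 5 and 2 of the 4 were called higher. Umod (623.9 to 752.4 CPM) and Slc12a3 (181.7 to 349.2 CPM) made up most of the 48 h sums. Egf was at 16.2 to 24.3 CPM at 48 h against 80.5 to 114.4 CPM in uninjured cells. Pvalb was also lower (0 to 0.337 against 0.702 to 1.32 CPM), and Calb1 overlapped (14.5 to 21.6 against 19.1 to 22.1 CPM). None of these 3 was called at 48 h. At d14 4 of the 5 and 4 of the 4 were called higher, and Egf, at 55.3 to 694 CPM, was not called. Umod (mean 3424 CPM) and Slc12a3 (mean 2770 CPM) again made up most of the d14 sums. The 5 neutrophil markers summed to 113 to 330 CPM at 48 h, to 2.58 to 7.58 CPM in uninjured and 3.27 to 5.62 CPM in d14 libraries. Of the 10 reference markers 9 were lower at 48 h and 10 at d14. In sorted bulk RNA, fewer proximal tubule cells and less of a transcript per cell cannot be told apart, and this touches every result below. The part of the other cell types in the results was not tested.

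Most of the 9 transporters were called lower in Sox9-labelled cells at each time, the exceptions being Slc22a6 and Slc22a30 at 48 h and Slc22a13 at d14. At 48 h 7 of 9 were called lower (adjusted p under 0.05 in edgeR's quasi-likelihood test, adjusted over all genes) and 0 higher, against a background of 11.7% of all tested genes called lower and 17.4% called higher. At d14 8 of 9 were lower than in uninjured cells and 0 higher, against 20.7% and 25.1% of all genes. In d14 against 48 h 5 of 9 were lower and 0 higher, against 16.3% and 16.8%. The median log2 fold change of the 9 was -2.26 at 48 h, -2.73 at d14 and -0.90 in d14 against 48 h, with medians of all genes tested at 0.02, 0.06 and 0.05.

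Without any statistical model, every 48 h library lay below every uninjured library in 9 of 9 members (20.8% of all genes, and 21.5% lay above). At d14 this held for 8 of 9 (28.9% of all genes below and 34.4% above). All d14 libraries lay below all 48 h libraries in 4 of 9 members and above them in 2 of 9, with 20.6% and 26.7% of all genes. The 4 were Slc22a2, Slc22a6, Slc22a12 and Slc22a18, and the 2 were Slc22a13 and Slc22a19, which are named here after their values were seen.

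**Figure D1:**
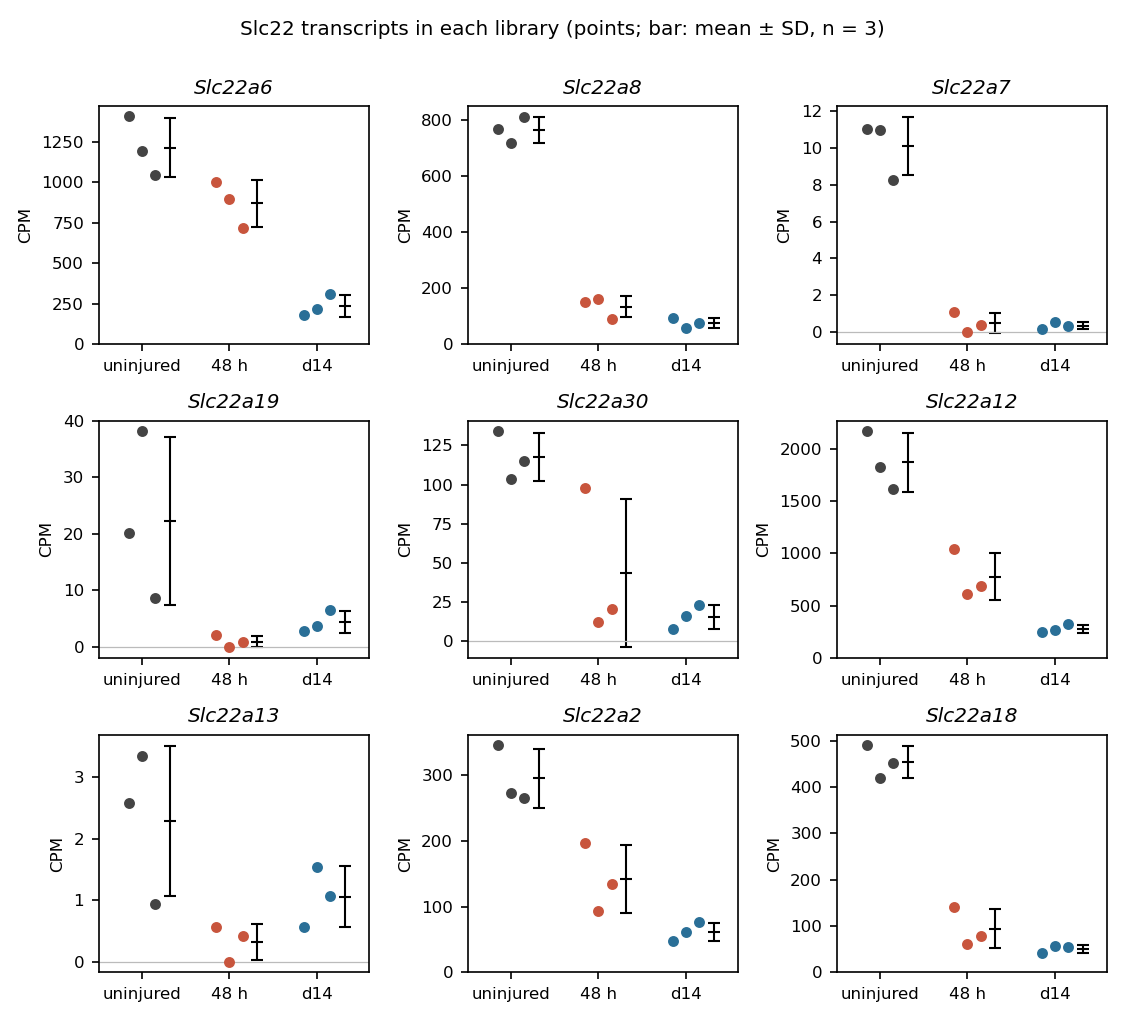
CPM (vertical axes, each from its own scale) of the 9 transporters in the uninjured, 48 h and d14 libraries, with a point per library in the order of replicates 1 to 3 and the mean ± SD of 3 libraries beside them. Slc22a6 stays at 715 to 1002 CPM at 48 h, close to its uninjured 1043 to 1407 CPM, while Slc22a8 is already at 89.7 to 160 CPM, and Slc22a30 has a single high 48 h library.

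Slc22a6 and Slc22a8 encode OAT1 and OAT3, the main organic anion exchangers of the blood side, which take up substrates such as para-aminohippurate and many drugs. They lie side by side on the plus strand of chromosome 19 in GRCm38 (mm10), Slc22a8 (ENSMUSG00000063796.9) from 8591254 to 8611835 and Slc22a6 (ENSMUSG00000024650.5) from 8618039 to 8628299, with 6203 bases and no protein-coding gene between them. Their promoter windows are shown because these neighbours parted at 48 h. The windows are 300 bases from RefSeq (GRCm38.p6), from 250 bases before to 50 bases after the annotated start, at chr19:8617746-8618045 for Slc22a6 and chr19:8592932-8593231 for Slc22a8, both on the plus strand and written 5′ to 3′. The RefSeq start of Slc22a8 lies downstream of its GENCODE start. Capitals mark the 50 bases from the annotated start on.
Slc22a6: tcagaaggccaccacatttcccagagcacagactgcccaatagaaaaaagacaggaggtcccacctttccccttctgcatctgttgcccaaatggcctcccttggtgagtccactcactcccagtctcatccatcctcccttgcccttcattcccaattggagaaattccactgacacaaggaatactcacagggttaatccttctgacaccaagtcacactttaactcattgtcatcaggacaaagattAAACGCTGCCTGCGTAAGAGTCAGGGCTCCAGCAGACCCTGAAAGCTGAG
Slc22a8: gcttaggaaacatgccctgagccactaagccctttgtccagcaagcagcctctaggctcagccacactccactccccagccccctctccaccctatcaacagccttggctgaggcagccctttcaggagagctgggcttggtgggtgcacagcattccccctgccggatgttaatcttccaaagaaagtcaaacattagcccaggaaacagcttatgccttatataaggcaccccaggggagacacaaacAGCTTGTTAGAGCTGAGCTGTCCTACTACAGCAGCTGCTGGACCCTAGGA
The HNF4 letters CAAAGTCCA, searched on both strands, were in 0 of the 8 members' windows in the promoter table (all but Slc22a7) and in 0.475% of the 32851 windows of that table. With exact letters this rare, 0 of 8 does not show that HNF4 sites are absent. TATAAA, on either strand, was in the window of Slc22a13 alone of the 8 and in 13.6% of all windows. That match is on the minus strand, written TTTATA, and begins at base 1 from the annotated start, not before it. The search took exact letters only, and the Slc22a8 window holds TATATAAG before its start, which they miss. It therefore does not show which members have a TATA box.

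Slc22a6 stood at 1407, 1193 and 1043 CPM in uninjured replicates 1 to 3, at 1002, 895 and 715 CPM at 48 h and at 177, 219 and 309.9 CPM at d14. The 48 h libraries lay just under the uninjured ones, and the d14 libraries far under both. At 48 h its log2 fold change of -0.48 ± 0.21 (SE; 95% interval -0.94 to -0.02) did not pass the test (edgeR adjusted p = 0.112). At d14 it fell by 2.37 ± 0.22 on the log2 scale (adjusted p = 7.25e-06), to 19.4% of the uninjured level. From 48 h to d14 it fell by 1.89 ± 0.22 (adjusted p = 1.31e-04), the steepest decrease of the 9 between these groups.

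Slc22a8 stood at 765, 717 and 809 CPM in uninjured cells, at 149.9, 160 and 89.7 CPM at 48 h and at 91.2, 57.6 and 75.5 CPM at d14. All Sox9 libraries lay well under the uninjured ones, and 48 h replicate 3 lay below d14 replicate 1, so the Sox9 groups overlapped. It was 5.74-fold lower at 48 h (log2 fold change -2.52 ± 0.23, adjusted p = 2.51e-05) and 10.2-fold lower at d14 (-3.35 ± 0.24, adjusted p = 1.18e-06). The further decrease from 48 h to d14 was -0.83 ± 0.22 (adjusted p = 0.0148). It was -0.67 and not called without d14 replicate 2 (adjusted p = 0.0593), and -0.23 and not called without TMM (adjusted p = 0.446).

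Most of the loss of Slc22a8 was already present at 48 h, when that of Slc22a6 was small. Per kilobase of annotated exon, the ratio of Slc22a6 to Slc22a8 was 1.81, 1.63 and 1.27 without injury. It reached 6.56, 5.50 and 7.83 at 48 h, and was 1.91, 3.73 and 4.03 at d14. The ratio was 4.23-fold higher at 48 h than in uninjured cells, with no overlap, and 1.97-fold higher at d14, where the lowest library, replicate 1, lay next to the uninjured 1.81. Exact two-sided permutation tests of the log2 ratio over libraries gave p = 0.1 for each of 3 comparisons (adjusted p = 0.1), the smallest value that 3 against 3 libraries can give. The pair was chosen after its values were seen.

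**Figure D2:**
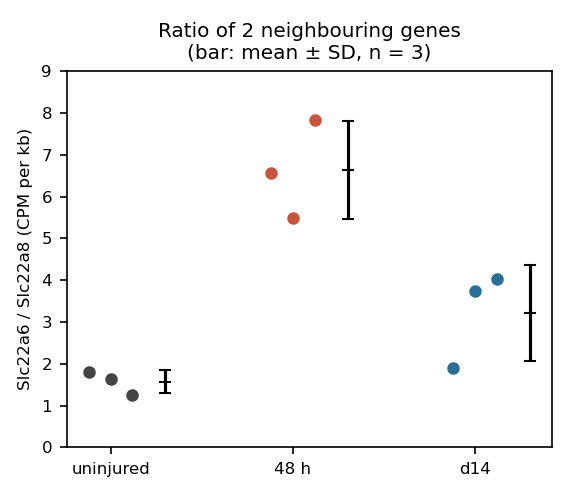
Ratio of Slc22a6 to Slc22a8 (vertical axis, CPM per kilobase of exon, no unit) in each uninjured, 48 h and d14 library (points), with the mean ± SD of 3 libraries. The 48 h libraries lie at 5.50 to 7.83, above all others, and d14 replicate 1 at 1.91 lies near the uninjured 1.27 to 1.81.

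Slc22a7, Slc22a19 and Slc22a30 encode further members of the organic anion branch, and were less abundant. Slc22a7, whose product OAT2 also carries anions and nucleotide-like solutes, lies on the minus strand of chromosome 17 from 46432183 to 46438457 (ENSMUSG00000067144.7). It stood at 11.05, 10.95 and 8.27 CPM in uninjured cells, at 1.07, 0 and 0.369 CPM at 48 h and at 0.141, 0.554 and 0.354 CPM at d14. Both Sox9 groups were near the detection limit, with 27 counts in all at 48 h and 31 at d14 against 1147 in uninjured cells. It was 18.5-fold lower at 48 h (log2 fold change -4.21 ± 0.71, adjusted p = 0.00128) and 28.7-fold lower at d14 (-4.85 ± 0.71, adjusted p = 2.03e-04). Replicate 1 held 19 of the 27 counts at 48 h, and without it the 48 h value was -5.29 ± 0.74 (adjusted p = 3.71e-04). The Sox9 groups overlapped (-0.64 ± 0.73 in d14 against 48 h, 95% interval -2.24 to 0.97, adjusted p = 0.537, and 0.44 without 48 h replicate 1, adjusted p = 0.715).

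Slc22a19, the mouse Oat5 gene, lies on the minus strand of chromosome 19 from 7673061 to 7711310 (ENSMUSG00000024757.7). Its level differed widely between uninjured libraries, at 20.2, 38.2 and 8.71 CPM, and was 2.08, 0 and 0.830 CPM at 48 h and 2.75, 3.76 and 6.50 CPM at d14. The 3 groups did not overlap, with 48 h lowest. It was 20.1-fold lower at 48 h (log2 fold change -4.33 ± 0.81, adjusted p = 0.00436), and the value was -5.26 without 48 h replicate 1 (adjusted p = 0.00492). With limma voom it was -4.61 ± 2.85 and not called (adjusted p = 0.274). At d14 it was 5.12-fold lower (-2.36 ± 0.70, adjusted p = 0.0214). That call was lost without d14 replicate 1 (-2.11, adjusted p = 0.0858) or 2 (-2.26, adjusted p = 0.0754) and without uninjured replicate 1 (-2.43, adjusted p = 0.0514) or 2 (-1.79, adjusted p = 0.0835). It was also lost with voom (-1.96, adjusted p = 0.0645) and with no filter on low counts (-2.39, adjusted p = 0.0762). From 48 h to d14 the log2 fold change was 1.97 ± 0.79 (95% interval 0.19 to 3.76) and missed the threshold (adjusted p = 0.0865), while without TMM it was 2.53 and passed (adjusted p = 0.0267). Without 48 h replicate 1 it was 2.91 (adjusted p = 0.0560).

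Slc22a30 (ENSMUSG00000052562.15) lies on the same strand from 8335371 to 8405111. It stood at 133.9, 103 and 115 CPM in uninjured cells, at 97.6, 11.9 and 20.2 CPM at 48 h and at 7.60, 16.3 and 22.9 CPM at d14. At 48 h replicate 1 lay close to the uninjured libraries and the other 2 lay among the d14 values. The 48 h log2 fold change was -1.42 ± 0.73 and was not called (adjusted p = 0.190), but was -2.83 ± 0.46 without 48 h replicate 1 (adjusted p = 0.00292). At d14 it was 7.51-fold lower (-2.91 ± 0.77, adjusted p = 0.0161), a call lost without d14 replicate 1 (-2.58, adjusted p = 0.0628) or 2 (-2.93, adjusted p = 0.0573). In d14 against 48 h it was at -1.49 ± 0.74 (adjusted p = 0.166), and at -0.08 without 48 h replicate 1 (adjusted p = 0.913).

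48 h replicate 1 also stood apart in the genes of the labels. Its Slc34a1 level, 4404 CPM, lay near the uninjured 4626 to 4807 CPM, against 1147 and 1895 CPM in the other 48 h libraries. Its Sox9 level was the lowest of the 48 h group, at 7.57 CPM against 15.1 and 22.1 CPM. The same library, 48 h replicate 1, differed in some markers of the last segment (S3) of the proximal tubule. The 5 S3 markers (Slc7a13, Cyp7b1, Slc5a10, Acy3 and Bcat1) summed to 1838 CPM in that library against 508 and 472 CPM in the other 48 h libraries, 1884 to 2706 CPM in uninjured cells and 228 to 474 CPM at d14. Acy3 (1632 CPM there against 346 and 304 CPM) and Slc7a13 (149 against 0.431 and 5.53 CPM) made up most of that sum, while Slc5a10 was lower there (53.7 CPM) than in the other 48 h libraries (161 and 160.1 CPM). Of these 5, Slc5a10 and Acy3 were called lower and Cyp7b1 and Bcat1 higher at d14, so the list did not move as a whole. The 4 markers of the earlier segments (Slc5a2, Slc5a12, Slc7a7 and Slc7a8) summed to 1146 CPM there against 995 and 871 CPM. Endothelial markers (6 genes) summed to 591 CPM in it, against 67.4 and 116 CPM in the other 48 h libraries. The part of these cells in the level of Slc22a30 was not tested.

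Slc22a19 and Slc22a30 are the outer members of a run of 6 Slc22 genes on the minus strand of chromosome 19 with no other protein-coding gene between them, in the order Slc22a19, Slc22a26, Slc22a27, Slc22a28, Slc22a29 and Slc22a30. Slc22a26, next to Slc22a19, had a like order of means, with 9.30 ± 8.60 CPM (SD, n = 3) uninjured, 0.860 ± 0.745 at 48 h and 3.02 ± 1.04 at d14. Slc22a28 went from 174 ± 22.4 to 59.8 ± 67.2 and 28.9 ± 9.16 CPM, with 136 CPM in its highest 48 h library and 10.8 and 32.2 CPM in the others. Slc22a29 was at 4.04 ± 0.615, 1.78 ± 1.46 and 0.759 ± 0.280 CPM. Slc22a27 had 0 counts in every uninjured library and was not tested. Of all 50-base words in annotated transcripts of Slc22a30, 34.2% also occur in transcripts of another gene, mainly Slc22a28, where the share is 53.9%. RSEM divides such reads between genes, so the levels of Slc22a28 and Slc22a30 are uncertain in a way that their spread does not show. The share was 0.985% for Slc22a19 and 0% for Slc22a6, Slc22a7, Slc22a12 and Slc22a18.

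Slc22a12 encodes URAT1, which brings urate back from the urine side, and was the most abundant of the 9 per length in every group. It lies on the minus strand of chromosome 19 from 6535845 to 6543032 (ENSMUSG00000061742.12). It stood at 2170.5, 1821 and 1612 CPM in uninjured cells, at 1038, 614 and 684 CPM at 48 h and at 251, 269 and 323 CPM at d14. The 3 groups stepped down without overlap. It was 2.40-fold lower at 48 h (log2 fold change -1.26 ± 0.21, adjusted p = 0.00116), 6.65-fold lower at d14 (-2.73 ± 0.22, adjusted p = 2.28e-06) and 2.77-fold lower at d14 than at 48 h (-1.47 ± 0.21, adjusted p = 4.60e-04). Its exons share 682 bases with exons of Nrxn2 on the other strand, and although the library kit keeps strand, the strand setting of the counting is not stated in any source used. Nrxn2 was at mean levels of 20.0, 20.2 and 5.39 CPM in the 3 groups, far below Slc22a12.

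Slc22a13 encodes OAT10, another urate and nicotinate carrier of the urine side, and was barely detected. It lies on the minus strand of chromosome 9 from 119192974 to 119209098 (ENSMUSG00000074028.4). It stood at 2.58, 3.33 and 0.939 CPM in uninjured cells, at 0.561, 0 and 0.415 CPM at 48 h and at 0.563, 1.54 and 1.06 CPM at d14. The uninjured and d14 groups overlapped. The 48 h value of -2.63 ± 0.86 just passed (adjusted p = 0.0400) and rested on 19 counts at 48 h against 251. It did not pass without uninjured replicate 1 (-2.55, adjusted p = 0.107) or 2 (-2.30, adjusted p = 0.122), 48 h replicate 2 (-2.22, adjusted p = 0.0525) or 3 (-2.75, adjusted p = 0.0900) or d14 replicate 2 (-2.64, adjusted p = 0.0530) or 3 (-2.64, adjusted p = 0.0592), nor with voom (-2.55, adjusted p = 0.139) or with only the 2 groups compared in the fit (-2.62, adjusted p = 0.0575). At d14 it was at -1.11 ± 0.78 (95% interval -2.83 to 0.60, adjusted p = 0.273), and in d14 against 48 h at 1.52 ± 0.85 (adjusted p = 0.194). Of its 50-base words 36.0% also occur in the pseudogene Slc22a13b-ps, so this level is uncertain too. A library with 0 counts allows up to 3 counts, which is 0.431 CPM in 48 h replicate 2, the library with no count of Slc22a7, Slc22a13 or Slc22a19.

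Slc22a2 encodes OCT2, through which organic cations such as metformin enter from the blood side. It lies on the plus strand of chromosome 17 from 12584132 to 12628488 (ENSMUSG00000040966.10). It stood at 346, 272 and 265 CPM in uninjured cells, at 196, 93.8 and 134 CPM at 48 h and at 48.0, 60.6 and 76.2 CPM at d14. The groups stepped down without overlap, as those of Slc22a12 did. It was 2.08-fold lower at 48 h (log2 fold change -1.05 ± 0.26, adjusted p = 0.0126), 4.78-fold lower at d14 (-2.26 ± 0.27, adjusted p = 6.85e-05) and 2.30-fold lower at d14 than at 48 h (-1.20 ± 0.26, adjusted p = 0.00628). Of the 50-base words of Slc22a2, 4.15% also occur in transcripts of another gene.

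Slc22a18, an imprinted gene of distal chromosome 7 whose transport substrate is less settled, lies on the plus strand from 143473736 to 143499334 (ENSMUSG00000000154.16). It stood at 491, 421 and 452 CPM in uninjured cells, at 141.5, 62.1 and 79.2 CPM at 48 h and at 41.6, 56.4 and 54.3 CPM at d14. The groups did not overlap, and most of the decrease was present at 48 h. It was 4.80-fold lower at 48 h (log2 fold change -2.26 ± 0.27, adjusted p = 2.32e-04) and 8.95-fold lower at d14 (-3.16 ± 0.28, adjusted p = 9.52e-06). Between 48 h and d14 it fell by 0.90 ± 0.26 (adjusted p = 0.0249). This was lost without d14 replicate 1 (-0.77, adjusted p = 0.0917) or 3 (-0.95, adjusted p = 0.0601), without TMM (-0.33, adjusted p = 0.251) and with no filter on low counts (-0.92, adjusted p = 0.0581).

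**Figure D3:**
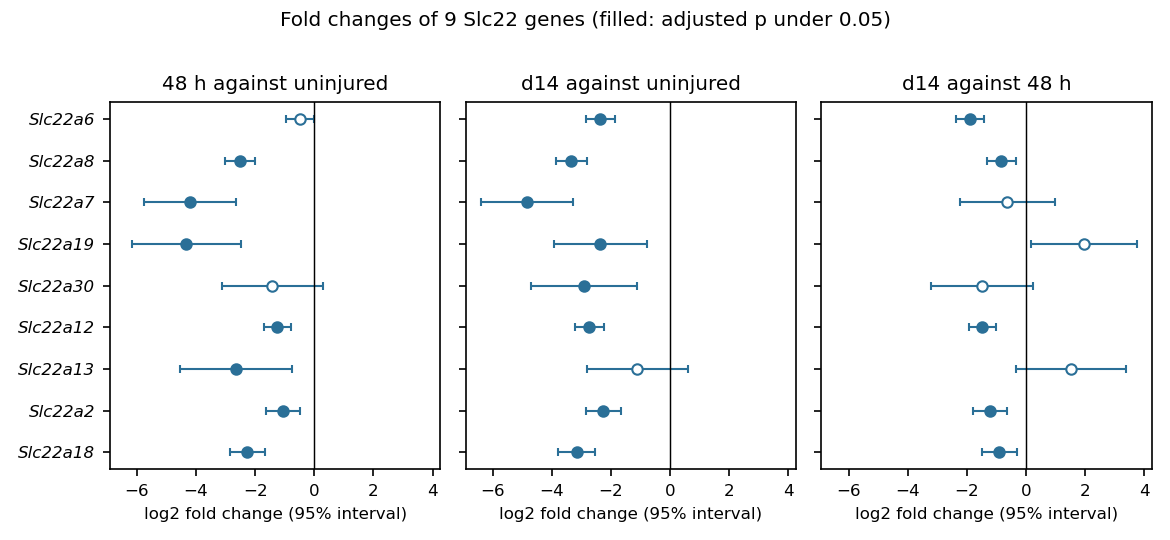
Log2 fold changes of the 9 transporters (horizontal axes, points with 95% intervals) in the 3 comparisons, filled where the edgeR adjusted p is under 0.05. At 48 h Slc22a6 (-0.48) and Slc22a30 (-1.42) are open, at d14 only Slc22a13 (-1.11) is, and between 48 h and d14 Slc22a13 (1.52) and Slc22a19 (1.97) are the members to the right of 0.

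Per kilobase of annotated exon, the order of levels in uninjured cells was Slc22a12 (825 ± 125 CPM per kb, mean ± SD, n = 3), Slc22a6 (305 ± 46.0), Slc22a18 (267 ± 20.6), Slc22a8 (195 ± 11.7), Slc22a2 (119, libraries from 107 to 139), Slc22a30 (34.9 ± 4.59), Slc22a7 (4.80 ± 0.750), Slc22a19 (4.12 ± 2.73) and Slc22a13 (1.14 ± 0.612). Neighbours whose libraries overlapped were Slc22a6 with Slc22a18, Slc22a7 with Slc22a19 and Slc22a19 with Slc22a13. At 48 h Slc22a12 (344 ± 100.4) and Slc22a6 (219 ± 36.4) stood clear of the rest, while Slc22a2 (57.0 ± 20.8), Slc22a18 (55.5 ± 24.6) and Slc22a8 (34.0 ± 9.71) overlapped in pairs, as did Slc22a8 and Slc22a30 (12.8, libraries from 3.54 to 28.98). At d14 Slc22a12 (124 ± 16.7) and Slc22a6 (59.1 ± 17.1) again led. Below them, Slc22a18 (29.9 ± 4.72) overlapped Slc22a2 (24.8 ± 5.69), and Slc22a2 overlapped Slc22a8 (19.1 ± 4.30), while Slc22a18 lay above Slc22a8.

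The 9 genes summed to 1756 ± 205 CPM per kb without injury, 723 ± 189 at 48 h and 263 ± 43.9 at d14. Slc22a12 held 46.9 ± 1.91% of that sum without injury, 47.4 ± 2.87% at 48 h and 47.3 ± 1.66% at d14. The share of Slc22a6 was 17.3 ± 0.772%, 30.9 ± 5.08% and 22.2 ± 2.66%, and that of Slc22a8 was 11.2 ± 1.60%, 4.82 ± 1.59% and 7.46 ± 2.50%. At 48 h Slc22a6 thus took a larger and Slc22a8 a smaller part of the sum, with no overlap with uninjured libraries, which held 16.4 to 17.8% and 9.85 to 12.98% against 26.7 to 36.5% and 3.75 to 6.65%.

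Set against the sum of 10 proximal tubule markers, some members changed as that sum did and others fell more. Slc22a6 was higher relative to the sum at 48 h, and members with wide SEs could not be placed. Lrp2 alone held 4374 of the mean 11584.5 CPM of the sum in uninjured cells, and the single markers differed. With TMM their log2 fold changes ran from -1.80 to -0.59 at 48 h and from -3.46 to -1.84 at d14. With libraries scaled to the summed 10 reference markers in place of TMM, the median of all genes moved to 1.25 at 48 h and 2.30 at d14. A log2 fold change near 0 then means a change like that of the sum. On this scale Slc22a2 (0.13 ± 0.21, adjusted p = 0.597) and Slc22a12 (-0.07 ± 0.21, adjusted p = 0.757) were near 0 at 48 h. Slc22a6 was higher (0.73 ± 0.22, adjusted p = 0.00655), with 154 to 205 CPM per 1000 CPM of reference markers against 81.2 to 121 in uninjured libraries. Slc22a8 (-1.29 ± 0.27, adjusted p = 4.77e-04), Slc22a18 (-1.09 ± 0.21, adjusted p = 1.66e-04), Slc22a7 (-3.16 ± 0.79, adjusted p = 0.00168) and Slc22a19 (-3.32 ± 0.79, adjusted p = 0.00305) fell more than the summed markers.

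At d14 on the same scale Slc22a8 (-1.07 ± 0.27, adjusted p = 0.00132), Slc22a18 (-0.94 ± 0.21, adjusted p = 3.42e-04), Slc22a7 (-2.69 ± 0.77, adjusted p = 0.00335) and Slc22a12 (-0.51 ± 0.21, adjusted p = 0.0327) fell more than the summed markers. With TMM, Slc22a8 (-3.35), Slc22a18 (-3.16) and Slc22a12 (-2.73) lay within the range of the single markers at d14. On the marker scale Slc22a6 (-0.16 ± 0.22, adjusted p = 0.503) and Slc22a2 (-0.04 ± 0.21, adjusted p = 0.861) were near 0 at d14. Slc22a19 (-0.23 ± 0.69, adjusted p = 0.758) was not called, but its SE is too wide to place it near 0. Slc22a30 (-0.35 ± 0.65 at 48 h and -0.72 ± 0.65 at d14) and Slc22a13 (-1.55 ± 0.91 and 1.01 ± 0.85) were called at neither time, with SEs as wide or wider. Slc22a18 was at 20.4 to 20.7 CPM per 1000 CPM of markers in all d14 libraries, against 35.2 to 42.1 in uninjured and 14.3 to 24.0 in 48 h libraries.

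**Figure D4:**
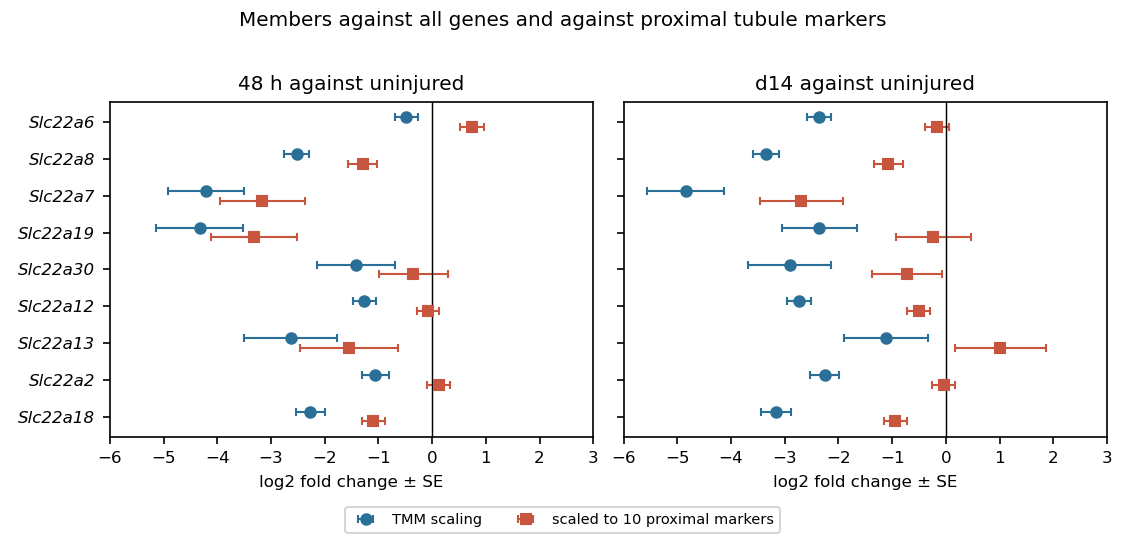
Log2 fold changes ± SE (horizontal axes) of the 9 transporters against uninjured cells at 48 h and d14, with TMM scaling (circles) and with libraries scaled to 10 proximal tubule markers (squares). Slc22a8, Slc22a18 and Slc22a7 stay left of 0 and were called lower on both scales at both times. Slc22a12, Slc22a19 and Slc22a30 also stay left of 0, but not all of their values were called. Slc22a2 lies at 0.13 and -0.04 on the marker scale.

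Of the 16 other Slc22 genes, 11 passed the filter on low counts. At 48 h 5 were lower and 1 higher, at d14 7 were lower and 1 higher, and in d14 against 48 h 2 were lower and 1 higher, with medians of -1.12, -1.65 and -0.40. Of all tested genes, 11.7%, 20.7% and 16.3% were lower and 17.4%, 25.1% and 16.8% higher in these comparisons, and 2 of 11 lower in d14 against 48 h is near that background. Slc22a5, which encodes the carnitine transporter OCTN2, was, like Slc22a6, called lower at d14 and not at 48 h, with 224 ± 10.4 CPM in uninjured cells, 179 ± 38.9 at 48 h (-0.33 ± 0.19, adjusted p = 0.218) and 59.0 ± 13.1 at d14 (-1.92 ± 0.19, adjusted p = 1.24e-05). Of its 50-base words 26.3% also occur elsewhere, mainly in Slc22a21, so its level is uncertain. Slc22a4 was lower at both times (-1.25 ± 0.25 and -1.65 ± 0.25), as was Slc22a23 (-0.49 ± 0.15 and -0.79 ± 0.15). Slc22a22, a prostaglandin carrier gene, was called only at d14 (-2.69 ± 0.71, adjusted p = 0.0156; -1.94 ± 0.69, adjusted p = 0.0722 at 48 h). Slc22a17 was lower at 48 h (-0.99 ± 0.19) and higher at d14 than at 48 h (0.83 ± 0.19, adjusted p = 0.00660). Slc22a21 was called in none of the 3 comparisons, with 2.66, 2.58 and 1.97 CPM.

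Slc22a15 was the family member called higher than in uninjured cells. It stood at 0.140 to 0.434 CPM without injury, 1.29 to 4.84 CPM at 48 h and 5.81 to 6.23 CPM at d14, with no overlap. Its log2 fold change was 3.29 ± 0.59 at 48 h (adjusted p = 0.00200) and 4.44 ± 0.61 at d14 (adjusted p = 1.28e-04). Its d14 level per kilobase, 0.425 ± 0.0156 CPM per kb, overlapped that of Slc22a13 (0.528 ± 0.245) and lay above that of Slc22a7 (0.166 ± 0.0984).

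The 25 partner genes are transporters, scaffolds and regulators that handle the same solutes or act on these transporters, and 23 of them were tested. At 48 h 8 were lower and 2 higher (median -0.43), at d14 16 were lower and 1 higher (-1.78) and in d14 against 48 h 13 were lower and 0 higher (-1.05). The shares of all tested genes were 11.7%, 20.7% and 16.3% lower and 17.4%, 25.1% and 16.8% higher. Slc13a3, which encodes the sodium-dicarboxylate carrier NaDC3 that supplies the exchange of OAT1 and OAT3, had 770 CPM uninjured against 861 CPM at 48 h (0.16 ± 0.15, adjusted p = 0.468). It was at 129 CPM at d14 (-2.58 ± 0.16, adjusted p = 4.08e-07), and so, like Slc22a6, was called lower at d14 and not at 48 h.

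On the urine side, Slc47a1, which encodes the cation exporter MATE1, was lower at 48 h (-1.11 ± 0.17, adjusted p = 8.59e-04) and at d14 (-2.01 ± 0.18, adjusted p = 5.09e-06), close to the values of Slc22a2. The urate and anion transporter genes Slc17a1 (-0.39 ± 0.14, adjusted p = 0.0534) and Slc17a3 (-0.43 ± 0.28, adjusted p = 0.286) did not pass at 48 h and were lower at d14 (-2.01 ± 0.14 and -2.33 ± 0.29). Abcg2, a urate and drug exporter gene, was lower at both times (-0.54 ± 0.13 and -2.004 ± 0.131), and Abcc2 at d14 (-1.82 ± 0.19). Abcc4 was at 79.2, 82.3 and 90.2 CPM and Slc2a9, the urate carrier GLUT9 of the blood side, at 9.48, 12.5 and 11.6 CPM, neither called in any comparison. Slco1a6, Slco3a1 and Slc17a4 were lower at both times, and Slco2a1, a prostaglandin carrier gene, was higher at both (1.15 ± 0.18 and 0.96 ± 0.18). Abcb1a and Abcb1b were lower at d14 (-1.78 ± 0.38 and -1.62 ± 0.47).

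Pdzk1, whose product anchors URAT1 and other carriers at the urine side, had 1128 CPM uninjured against 998 CPM at 48 h (-0.18 ± 0.17, adjusted p = 0.470), and 248 CPM at d14 (-2.19 ± 0.17, adjusted p = 2.28e-06). The scaffold Slc9a3r1 was likewise lower only at d14 among the comparisons with uninjured cells (-1.19 ± 0.20). The regulator gene Hnf4a was lower at 48 h (-0.66 ± 0.12, adjusted p = 0.00238) and d14 (-1.95 ± 0.13, adjusted p = 5.10e-07). Xdh, which encodes the urate-forming xanthine dehydrogenase, was higher at 48 h (1.40 ± 0.31, adjusted p = 0.00807) and lower at d14 than at 48 h (-1.71 ± 0.31, adjusted p = 0.00300).

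**Figure D5:**
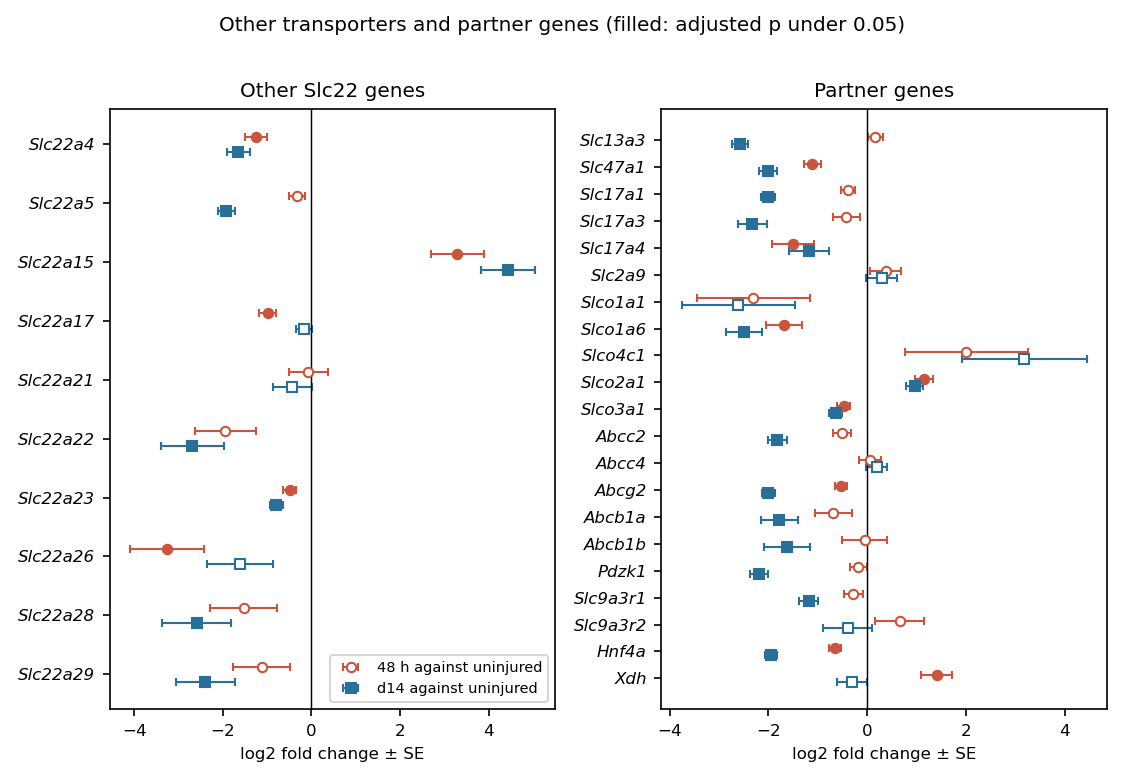
Log2 fold changes ± SE (horizontal axes) of other tested Slc22 genes and of tested partner genes, at 48 h (circles) and d14 (squares) against uninjured cells, filled where the edgeR adjusted p is under 0.05. Slc22a15 (3.29 and 4.44) lies to the right, and Slc13a3, Pdzk1 and Slc22a5 are near 0 at 48 h and left of -1.9 at d14.

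The genes with the most similar course over the 9 libraries were found by Pearson correlation of log2(CPM + 0.5) among 8532 genes with a mean of at least 10 CPM. These correlations are descriptions, since all points share the same 3 groups, libraries and depths. Slc22a12 was closest to Gcdh (r = 0.996), which encodes glutaryl-CoA dehydrogenase, to the fatty acid carrier and acyl-CoA synthetase gene Slc27a2 (0.996) and to Pepd (0.995). Slc22a2 was closest to Slc6a20b (0.994), Ldhd (0.993) and Pecr (0.992), and Slc22a18 to Cltrn (0.998), which encodes collectrin, and to Treh (0.996). Slc22a6 was closest to Slc16a4 (0.992), Ndufab1 (0.992) and Dlst (0.992), Slc22a8 to Bend7 (0.992), Ndfip1 (0.987) and Pex5 (0.986), and Slc22a7 to Ugt3a2 (0.992), Cndp1 (0.990) and Snx29 (0.990). Slc22a30 was closest to Slc34a1 (0.993), the gene behind the uninjured label, Galnt11 (0.991) and Amacr (0.988). For Slc22a19 these were Gramd4 (0.984), B3gat3 (0.974) and Zbtb43 (0.974), and for Slc22a13 Tbc1d17 (0.941), Gramd4 (0.940) and Dele1 (0.938). Among the members, Slc22a6 and Slc22a8 correlated at 0.784 and Slc22a2 and Slc22a12 at 0.989.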

How the data were processed

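The table deposited by the authors holds expected counts per gene and library as whole numbers, in columns named as RSEM gene results per the file headers. STAR 2.6.1 and RSEM 1.2.28 are among the tools listed, without roles, in the submitters' processing notes, which also list mm10 beside a human build. No source used here gives the gene annotation, the rounding or the strand setting. GENCODE M21 (GRCm38) holds 54487 of the 55385 gene identifiers in the same version, and gave positions and exon lengths. The 92 spike-in rows held 0 counts and were left out.

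Genes were kept by filterByExpr (minimum count 10, minimum total 15; at least 99.89% of each library's counts). TMM scaling and a robust quasi-likelihood fit with a mean per group over all 9 libraries used edgeR 4.0.16 in R 4.3.3, with Benjamini-Hochberg adjustment over 15519 genes in each comparison and calls at adjusted p under 0.05. The SE is the log2 fold change over the square root of F. Comparisons with uninjured cells share those libraries. Alternatives used DESeq2 1.42.0, limma 3.58.1, other scalings and filters, and each library left out. The fit was tested on simulated data. The members, the lists of other Slc22, partner and marker genes and the naming rule (all members, other Slc22 genes at 1 CPM or more, called partner genes, the 3 most similar genes) were chosen with earlier results of these data known. Partner genes named without a call are an exception, and a few genes within the rule are not reported here. The 3-count floor allows for counting error alone, and the labels mention no molecular identifiers.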

Additional observations from a re-analysis of the deposited data

Results flagged for a closer look

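In 5 of the 9 members the change from uninjured cells differed between the 2 times, by the direct edgeR test of d14 against 48 h, in which 16.3% of all tested genes were lower and 16.8% higher. The log2 fold changes of d14 against 48 h were -1.20 for Slc22a2, -1.89 for Slc22a6, -0.83 for Slc22a8, -1.47 for Slc22a12 and -0.90 for Slc22a18, each with every d14 library below every 48 h library except for Slc22a8. Of the 10 proximal tubule reference markers, 9 were also called lower at d14 than at 48 h, with log2 fold changes from -1.67 to -0.47 over the 10. With libraries scaled to the sum of these markers, only Slc22a6 of the 5 was called lower (-0.89 ± 0.22, edgeR adjusted p = 0.00222). Slc22a2 (-0.17), Slc22a8 (0.22), Slc22a12 (-0.43) and Slc22a18 (0.15) were not called on that scale. Endothelial markers were called lower at d14 than at 48 h in 6 of 6 genes and thick ascending limb markers higher in 5 of 5, and their part in these differences was not tested.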

How the results depend on the processing

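Of 509 values of the members' 27 fold changes under 19 alternatives, 464 kept direction and side of the threshold, 34 lost and 4 gained a call, and 7 changed sign. No value could be had for Slc22a13 under the stricter filter, or for Slc22a7 in d14 against 48 h with only those groups fitted, since the filters removed them. Of the 7, 6 arose with scaling to the proximal tubule markers: Slc22a2 (0.13) and Slc22a6 (0.73) at 48 h, Slc22a13 at d14 (1.01) and, in d14 against 48 h, Slc22a7 (0.47), Slc22a8 (0.22) and Slc22a18 (0.15). Slc22a7 in d14 against 48 h was also at 0.44 without 48 h replicate 1, and ranged from -1.08 (without d14 replicate 2) to 0.44 with 1 library left out. That scaling sets the sum of the markers to no change, so by construction it moved counts. Members lower became 4, 4 and 1 at 48 h, d14 and d14 against 48 h, and members higher 1 at 48 h and 2 in d14 against 48 h. All genes lower became 120, 110 and 439 and higher 11589, 13355 and 9480, and partner genes lower 0, 0 and 5 and higher 15, 9 and 5.

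Without TMM the median of all genes was 0.01, 0.63 and 0.63. Members in d14 against 48 h became 3 lower and 1 higher. All genes became 1417 lower and 7315 higher at d14, and 934 and 6812 in d14 against 48 h, so 83.8% and 87.9% of calls were higher instead of 54.8% and 50.7%. Partner genes higher became 4 and 3. They were 2 at d14 with DESeq2, voom, no filter and only the 2 groups compared. The cause was not tested.

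With 1 library left out, members lower ranged from 6 to 8, 6 to 8 and 4 to 5, with 0 higher throughout. All genes lower at 48 h ranged from 1147 (without uninjured replicate 1; 1208 without replicate 3) to 1995. Partner genes higher ranged from 1 to 2 at d14 (2 without 48 h replicate 2 or 3) and from 0 to 1 in d14 against 48 h (1 without 48 h replicate 1). Where 2 libraries were left in a group, the spread was pooled over groups.

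No pairing by replicate number was seen: deviations of same-numbered libraries from their group means correlated at -0.13 to 0.02. The labels do not state a pairing, and a correlation over all tested genes could miss one that affects few genes. With a replicate block members lower were 6, 7 and 4. The calls lost were Slc22a13 at 48 h (-2.50, adjusted p = 0.101), Slc22a19 at d14 (-2.23, adjusted p = 0.0768) and Slc22a18 in d14 against 48 h (-0.83, adjusted p = 0.0529). Depth limits Slc22a7, Slc22a13 and Slc22a19 at 48 h, where replicate 2 had 8036054 counts.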
